A study of Mus musculus with 11 samples.

Results

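Sinusoidal endothelial cells of the liver were followed through 10 marker genes, Stab1, Stab2, Lyve1, Clec4g, Fcgr2b, Gpr182, Oit3, Kdr, Pecam1 and Cdh5, in whole-liver RNA of 4 mouse genotypes. A gene was represented by a probe set annotated with its symbol alone, and where a gene had several, by the probe set with the highest mean over the 11 arrays. All 10 markers were measured, out of 19938 genes with such a probe set. The mice were males of the strain labelled C57/BL6, aged 8 to 9 weeks and fed standard chow. There were 3 Nemo/TNFR1 dKO, 2 Nemo/TRAIL dKO, 3 Nemo KO and 3 wild-type (WT) liver samples (livers for short), each on its own array. Nemo KO mice (NemoΔhepa) carry a floxed Nemo gene deleted in hepatocytes. Nemo (Ikbkg) is the regulatory subunit of the kinase that activates NF-kappa-B. The Nemo/TNFR1 dKO carries the same hepatocyte deletion together with constitutive loss of the TNF receptor TNFR1 (TNFR1-/-), and the Nemo/TRAIL dKO carries it together with constitutive loss of the death ligand TRAIL (TRAIL-/-). By this design the endothelial cells of a Nemo KO liver keep their own Nemo, whereas those of the double knockouts lack TNFR1 or TRAIL as every other cell does. No liver lacked TNFR1 or TRAIL with Nemo intact, and no source used here names the Cre line.

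Liver sinusoids are lined by a discontinuous, fenestrated endothelium without a continuous basement membrane. Its cells are professional scavengers that take up hyaluronan, modified lipoproteins and immune complexes through a set of endocytic receptors, and they send Wnt and other signals to hepatocytes. In chronic liver injury sinusoids can undergo capillarisation, in which fenestrae close, a basement membrane forms and markers of other capillaries such as CD34 appear. GATA4 is a known regulator of sinusoidal identity in mice, and factors of the ETS family are general regulators of endothelial genes. In whole-liver RNA, fewer cells of a type and less RNA per cell cannot be told apart.

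Promoter sequence from RefSeq (GRCm38.p6, the 250 bases before the annotated start) was given for 5 of the 10 markers, namely Stab1, Stab2, Clec4g, Fcgr2b and Kdr. Shown are Kdr, the only marker among these 5 that was called in a comparison, Stab1 and Stab2, whose levels varied together within genotypes, and Clec4g, which held the only GATA match. Each is written 5′ to 3′ on the gene's strand, and capitals mark matches to a GATA motif (GATA preceded by A or T and followed by A or G) or an ETS motif (GGAA preceded by CC or CA), searched on both strands.
Kdr, chr5:75978456-75978705, minus strand: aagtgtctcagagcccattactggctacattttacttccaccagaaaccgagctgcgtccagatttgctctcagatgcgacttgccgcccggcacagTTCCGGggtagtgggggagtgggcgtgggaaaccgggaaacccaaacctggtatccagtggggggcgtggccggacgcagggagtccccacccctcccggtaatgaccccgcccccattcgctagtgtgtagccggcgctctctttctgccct
Stab1, chr14:31168642-31168891, minus strand: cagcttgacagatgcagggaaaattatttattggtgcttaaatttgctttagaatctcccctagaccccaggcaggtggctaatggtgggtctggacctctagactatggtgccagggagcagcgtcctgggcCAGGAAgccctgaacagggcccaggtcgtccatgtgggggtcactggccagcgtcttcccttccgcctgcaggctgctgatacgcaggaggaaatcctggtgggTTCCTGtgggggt
Stab2, chr10:87007943-87008192, minus strand: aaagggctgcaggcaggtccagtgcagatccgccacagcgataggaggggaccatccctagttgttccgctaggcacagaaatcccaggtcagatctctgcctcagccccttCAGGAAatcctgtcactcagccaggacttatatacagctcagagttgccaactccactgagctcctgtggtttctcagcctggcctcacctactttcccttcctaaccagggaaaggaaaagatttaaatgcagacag
Clec4g, chr8:3720652-3720901, minus strand: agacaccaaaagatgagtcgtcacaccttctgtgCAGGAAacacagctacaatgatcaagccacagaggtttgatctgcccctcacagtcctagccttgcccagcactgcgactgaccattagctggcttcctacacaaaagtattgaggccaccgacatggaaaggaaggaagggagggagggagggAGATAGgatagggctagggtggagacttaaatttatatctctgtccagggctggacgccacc
The Clec4g window holds 1 GATA and 1 ETS match, with first bases 62 and 216 bases before the start. Kdr and Stab2 each hold 1 ETS match, 153 and 138 bases before the start. Stab1 holds 2 ETS matches. Fcgr2b holds neither motif in its window. Among the 5 markers 1 had a GATA match and 4 an ETS match, and of all 32851 promoter windows 26.5% held a GATA match and 35.1% an ETS match. These matches describe the letters in the windows and were not tested as binding sites.

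Expression values are log2 values after RMA, the authors' array normalization, so a difference of 1 is a 2-fold change, and levels of different genes cannot be compared with each other. All 10 markers lay above the median of mean signal over all 35556 probe sets. The weakest relative position was that of Pecam1, at percentile 73.2 on its lowest array. The highest was that of Clec4g, at percentile 96.9 on its lowest array. None of the markers fell below the 25th percentile on any array. The markers of the cell type were thus present in every liver. Hepatocyte markers (9 of 10 measured) averaged between 13.2 and 13.3 in Nemo/TNFR1 dKO, Nemo/TRAIL dKO and Nemo KO livers, against 13.1 to 13.4 in WT livers, and none of them was called in any comparison with WT.

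Of the genes targeted in the mice, Ikbkg averaged 8.21 ± 0.10 in the 3 Nemo/TNFR1 dKO, 8.25 ± 0.05 in the 2 Nemo/TRAIL dKO and 8.42 ± 0.12 in the 3 Nemo KO livers (SD), against 8.66 ± 0.07 in the 3 WT livers. Tnfsf10, which encodes TRAIL, averaged 6.17 ± 0.09 in Nemo/TRAIL dKO livers, against 6.54 ± 0.30 in Nemo KO and 6.82 ± 0.27 in WT livers. Tnfrsf1a, which encodes TNFR1, averaged 10.06 ± 0.12 in Nemo/TNFR1 dKO livers, against 10.33 ± 0.13 in Nemo KO and 9.99 ± 0.09 in WT livers. A probe set covers the whole transcript and no source used here gives the deleted parts of the genes, so the TNFR1 label could not be checked by this level, and genotypes are named by their labels. WT replicate 3 stood apart. Its 9 measured pancreatic acinar genes averaged 11.6, against 5.63 to 6.04 on the other 10 arrays, and where leaving it out changes a count or a call of a gene named for its difference, the value without it is given. Each double knockout carries its own code in the array names, whereas Nemo KO and WT share a code. No source used here says what the code marks, and for the double knockouts code and genotype cannot be told apart. The labels do not say whether the replicates of a genotype came from separate animals or litters, so p-values cover the spread between these arrays alone.

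**Figure D1:**
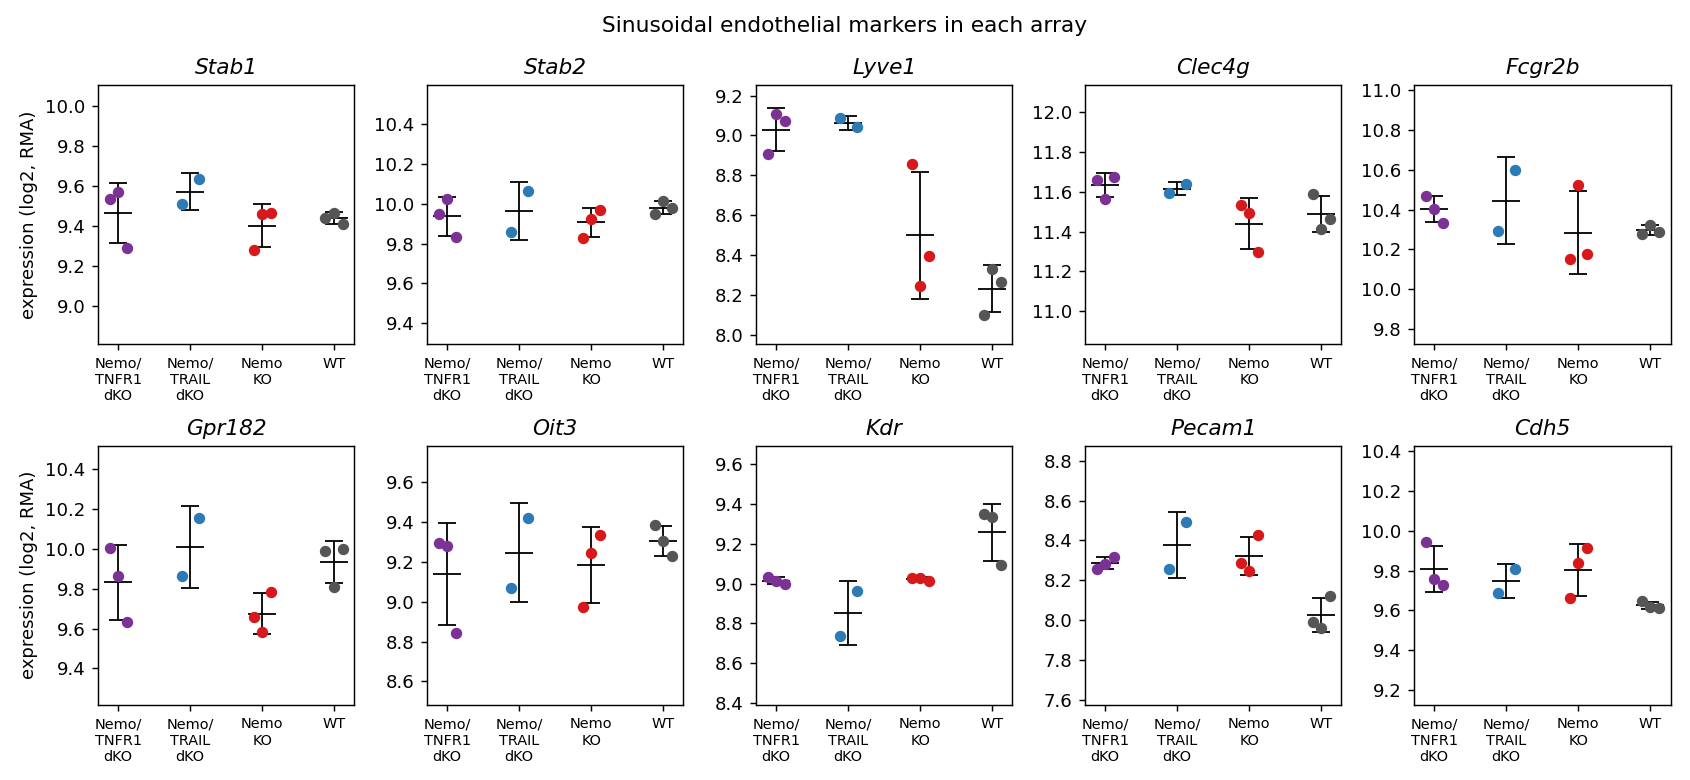
Expression (log2, RMA) of the 10 sinusoidal endothelial markers in each array, with a point per liver and a bar for the mean ± SD of each genotype, and the same height of the vertical axis in every panel. Lyve1 lies between 8.90 and 9.11 in all 5 double knockout livers, above every Nemo KO and WT liver, and Kdr in WT livers (9.09 to 9.35) lies above all other livers.

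The first question was whether the sinusoidal endothelium looked different at the level of these markers in livers without hepatocyte Nemo. At an adjusted p below 0.05 (Benjamini-Hochberg over all 35556 probe sets within a comparison), no marker was called in Nemo KO against WT, where 9.29% of all probe sets were called. In Nemo/TRAIL dKO against WT 3 of 10 markers were called, Lyve1 and Pecam1 higher and Kdr lower, where 7.55% of probe sets were called (4.91% higher and 2.64% lower). In Nemo/TNFR1 dKO against WT only Lyve1 was called, higher, where 9.18% of probe sets were called (5.83% higher). The markers' median log2 difference from WT was 0.07 in Nemo/TNFR1 dKO, 0.13 in Nemo/TRAIL dKO and -0.04 in Nemo KO livers, beside -0.02, -0.04 and -0.05 over all genes in the same order. At an unadjusted p below 0.05 there were 3 markers in Nemo/TNFR1 dKO, beside 23.0% of all probe sets, 3 in Nemo/TRAIL dKO, beside 21.2%, and 2 in Nemo KO livers, beside 24.8%, so that the share of markers was near that of all probe sets. Without WT replicate 3, 1 marker was called higher and 1 lower in Nemo/TNFR1 dKO (Lyve1 and Kdr), 2 and 1 in Nemo/TRAIL dKO, and 1 and 1 in Nemo KO livers (Pecam1 and Kdr). The 3 comparisons share the WT arrays.

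Lyve1, the hyaluronan receptor of lymphatic vessels and of sinusoidal endothelium, had the largest difference of the 10 markers in both double knockouts, against WT and against Nemo KO. It measured 8.90, 9.11 and 9.07 in Nemo/TNFR1 dKO livers and 9.09 and 9.04 in Nemo/TRAIL dKO livers. In Nemo KO livers it measured 8.86, 8.25 and 8.39, and in WT livers 8.10, 8.33 and 8.26. Both double knockouts thus lay above all Nemo KO and WT livers, and Nemo KO livers overlapped with WT, with Nemo KO replicate 1 close to the double knockouts. In order of level the genotypes ran Nemo/TRAIL dKO (9.06 ± 0.03, SD, n = 2), Nemo/TNFR1 dKO (9.03 ± 0.11, n = 3), Nemo KO (8.50 ± 0.32, n = 3) and WT (8.23 ± 0.12, n = 3). Of these neighbours, the 2 double knockouts overlapped, as did Nemo KO and WT. Among all probe sets 0.295% (105) had both double knockouts above every Nemo KO and WT array.

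Against WT, Lyve1 rose 1.74-fold in Nemo/TNFR1 dKO livers (95% interval 1.39 to 2.17, log2 difference 0.80 ± 0.14 SE, adjusted p = 0.00792). It rose 1.78-fold in Nemo/TRAIL dKO livers (1.39 to 2.28, log2 difference 0.83 ± 0.16, adjusted p = 0.0129). The Nemo KO difference was 0.27 ± 0.14 (adjusted p = 0.279), which did not pass. The Nemo/TNFR1 dKO call held with each of the 11 arrays left out in turn. The Nemo/TRAIL dKO call was lost without either of its own arrays, at an adjusted p of 0.0994 without replicate 1 and 0.0640 without replicate 2, where a single liver was left in the group and assumed to vary like the other groups.

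Stab1 and Stab2 encode the stabilins, the large scavenger receptors that clear hyaluronan and other waste molecules from blood. Stab1 measured 9.53, 9.57 and 9.29 in Nemo/TNFR1 dKO, 9.51 and 9.64 in Nemo/TRAIL dKO, 9.28, 9.46 and 9.47 in Nemo KO, and 9.44, 9.47 and 9.41 in WT livers. Stab2 measured 9.95, 10.03 and 9.83 in Nemo/TNFR1 dKO, 9.86 and 10.06 in Nemo/TRAIL dKO, 9.83, 9.92 and 9.97 in Nemo KO, and 9.95, 10.01 and 9.98 in WT livers. Values of the 4 genotypes overlapped for Stab2, and for Stab1 only the Nemo/TRAIL dKO livers lay above all WT livers. The log2 differences of Stab2 from WT were -0.04 ± 0.08, -0.02 ± 0.09 and -0.07 ± 0.08 (SE) in Nemo/TNFR1 dKO, Nemo/TRAIL dKO and Nemo KO, and their 95% intervals allow a fold between 0.842 and 1.13. Those of Stab1 were 0.03 ± 0.09, 0.13 ± 0.10 and -0.04 ± 0.09, with intervals between a fold of 0.849 and 1.28.

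Clec4g, the C-type lectin LSECtin, had the highest values of its 4 genotypes in the double knockouts, without a call. It measured 11.66, 11.56 and 11.68 in Nemo/TNFR1 dKO, 11.59 and 11.64 in Nemo/TRAIL dKO, 11.53, 11.49 and 11.30 in Nemo KO, and 11.59, 11.41 and 11.46 in WT livers. The difference from WT was 0.15 ± 0.08 in Nemo/TNFR1 dKO (adjusted p = 0.322), 0.13 ± 0.09 in Nemo/TRAIL dKO (0.471) and -0.05 ± 0.08 in Nemo KO livers (0.750). Both double knockouts lay above all Nemo KO livers, the Nemo/TRAIL dKO livers lay narrowly above all WT livers, and the Nemo/TNFR1 dKO livers overlapped with WT. The share of all probe sets without overlap against Nemo KO is not given here. Against WT it was 25.5% in Nemo/TNFR1 dKO and 35.9% in Nemo/TRAIL dKO. A second Clec4g probe set gave 4.54 to 5.10 and was below the 25th percentile on 6 arrays, and was not used.

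Fcgr2b encodes the inhibitory Fc gamma receptor, through which sinusoidal endothelium takes up small immune complexes. It measured 10.47, 10.40 and 10.33 in Nemo/TNFR1 dKO, 10.29 and 10.60 in Nemo/TRAIL dKO, 10.15, 10.52 and 10.18 in Nemo KO, and 10.28, 10.32 and 10.29 in WT livers. Nemo/TNFR1 dKO livers lay narrowly above all WT livers, and the other genotypes overlapped with WT. The differences from WT were 0.11 ± 0.11, 0.15 ± 0.12 and -0.01 ± 0.11 (adjusted p = 0.626, 0.559 and 0.957), with all 3 intervals between a fold of 0.833 and 1.35. The rest of the Fc gamma receptor system, which in liver belongs mainly to macrophages and other myeloid cells, was measured beside it. All 6 measured genes of 7 (the activating receptors Fcgr1, Fcgr3 and Fcgr4, their signalling chain Fcer1g, the kinase Syk and the phosphatase Inpp5d) rose in each of the 3 Nemo-deficient genotypes. Their median difference was 0.92 in Nemo/TNFR1 dKO, 1.05 in Nemo/TRAIL dKO and 0.96 in Nemo KO livers, beside -0.02, -0.04 and -0.05 over all genes. All 6 were called in each genotype, where 9.18%, 7.55% and 9.29% of all probe sets were called in the same order. Fcgr4, for example, differed from WT by 1.04 ± 0.16, 1.29 ± 0.17 and 1.14 ± 0.16 (adjusted p = 0.00346, 0.00293 and 0.00223). These calls held with each array left out, apart from Fcgr3 in Nemo/TRAIL dKO (adjusted p = 0.0518 without Nemo/TRAIL dKO replicate 1), among the genes for which this was followed, namely Fcgr3, Fcgr4, Fcer1g and Inpp5d.

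Gpr182, an atypical chemokine receptor of endothelium, and Oit3, a secreted protein with a zona pellucida domain made in liver, were not called. Gpr182 measured 10.005, 9.86 and 9.63 in Nemo/TNFR1 dKO, 9.86 and 10.16 in Nemo/TRAIL dKO, 9.66, 9.58 and 9.78 in Nemo KO, and 9.99, 9.81 and 10.001 in WT livers. All 3 Nemo KO livers lay below all 3 WT livers, with a log2 difference of -0.26 ± 0.12 (adjusted p = 0.203), and the double knockouts overlapped with WT. Oit3 measured 9.30, 9.28 and 8.84 in Nemo/TNFR1 dKO, 9.07 and 9.42 in Nemo/TRAIL dKO, 8.97, 9.25 and 9.33 in Nemo KO, and 9.38, 9.31 and 9.23 in WT livers. It had the widest spread within genotypes of the 10 markers (pooled SD 0.20), and its differences from WT lay between -0.17 and -0.06 with intervals reaching a fold of 0.709 to 1.24.

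Kdr encodes VEGF receptor 2, the main signalling receptor for VEGF-A on endothelium. It measured 9.03, 9.01 and 9.00 in Nemo/TNFR1 dKO, 8.74 and 8.96 in Nemo/TRAIL dKO, 9.03, 9.03 and 9.01 in Nemo KO, and 9.35, 9.33 and 9.09 in WT livers. All 8 Nemo-deficient livers lay below all 3 WT livers, with WT replicate 3 the lowest of its group. From low to high the genotypes ran Nemo/TRAIL dKO (8.85 ± 0.16, SD, n = 2), Nemo/TNFR1 dKO (9.01 ± 0.02, n = 3), Nemo KO (9.02 ± 0.01, n = 3) and WT (9.26 ± 0.14, n = 3), and of these neighbours only Nemo KO and Nemo/TNFR1 dKO overlapped.

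Against WT, Kdr fell to a fold of 0.754 in Nemo/TRAIL dKO livers (95% interval 0.651 to 0.874, log2 difference -0.41 ± 0.09 SE, adjusted p = 0.0303). The differences of -0.24 ± 0.08 in Nemo/TNFR1 dKO (adjusted p = 0.117) and -0.23 ± 0.08 in Nemo KO livers (0.123) did not pass. With WT replicate 3 left out, both did, at -0.33 (adjusted p = 0.0363) and -0.32 (0.0391). The Nemo/TRAIL dKO call held in 6 of 11 fits with an array left out. It was lost without WT replicate 1 (adjusted p = 0.0818), WT replicate 2 (0.0874), Nemo KO replicate 2 (0.0515), Nemo KO replicate 3 (0.0502) and Nemo/TRAIL dKO replicate 1 (0.234).

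Around Kdr, 14 genes of the VEGF and angiopoietin system were measured. In Nemo/TNFR1 dKO against WT 1 was called higher and 2 lower, in Nemo/TRAIL dKO 0 and 2, and in Nemo KO 1 and 0, with medians of -0.08, -0.08 and 0.05. Without WT replicate 3 these counts were 0 and 2, 0 and 1, and 0 and 2. Of all probe sets, 9.18%, 7.55% and 9.29% were called with all arrays, in the same order of genotypes. Vegfa, the ligand of Kdr, which hepatocytes also make, averaged 10.12 ± 0.18 in the 3 Nemo/TNFR1 dKO, 9.97 ± 0.14 in the 2 Nemo/TRAIL dKO and 10.17 ± 0.15 in the 3 Nemo KO livers (SD), against 10.62 ± 0.16 in the 3 WT livers. It fell by 0.49 ± 0.12 (SE, adjusted p = 0.0371) in Nemo/TNFR1 dKO and by 0.65 ± 0.14 (0.0210) in Nemo/TRAIL dKO livers. The Nemo KO difference was -0.44 ± 0.12 (adjusted p = 0.0566), and -0.53 (0.0421) without WT replicate 3. The Vegfa calls held in 6 and 7 of 11 fits with an array left out, and adjusted p reached 0.119 and 0.140 among the others, which left out WT replicate 1 or 2, an array of the double knockout itself or, in Nemo/TNFR1 dKO, Nemo KO replicate 1.

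Nrp1, neuropilin-1, a co-receptor that binds VEGF-A together with Kdr, averaged 9.58 ± 0.20 in Nemo/TNFR1 dKO and 9.75 ± 0.23 in Nemo/TRAIL dKO livers, against 10.01 ± 0.19 in Nemo KO and 10.31 ± 0.07 in WT livers. Relative to WT it fell by 0.73 ± 0.13 (adjusted p = 0.00813, called with each array left out) and by 0.57 ± 0.15 (0.0473, called in 2 of 11 such fits, up to 0.274, and at 0.106 without WT replicate 3), and the Nemo KO difference was -0.30 ± 0.13 (0.190). Vegfc, the ligand of the lymphatic receptor Flt4, rose by 0.51 ± 0.11 in Nemo/TNFR1 dKO (adjusted p = 0.0199) and by 0.50 ± 0.11 in Nemo KO livers (0.0204). With WT replicate 3 left out, these differences were 0.42 and 0.42 and no longer passed (adjusted p = 0.0570 and 0.0590). The receptors Flt1, Flt4, Tek and Tie1 were not called in any comparison with WT, and without WT replicate 3 Flt1 was called lower in Nemo KO livers (-0.49, adjusted p = 0.0341, against -0.35 and 0.143 with it).

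Pecam1 (CD31) and Cdh5 (VE-cadherin) are junction proteins of all endothelium, and both were highest outside WT. Pecam1 measured 8.26, 8.28 and 8.32 in Nemo/TNFR1 dKO, 8.26 and 8.49 in Nemo/TRAIL dKO, 8.29, 8.25 and 8.43 in Nemo KO, and 7.99, 7.96 and 8.12 in WT livers. All 8 Nemo-deficient livers lay above all WT livers and overlapped among themselves. The difference from WT was 0.26 ± 0.08 in Nemo/TNFR1 dKO (SE, adjusted p = 0.0839), 0.35 ± 0.09 in Nemo/TRAIL dKO (0.0488) and 0.30 ± 0.08 in Nemo KO livers (0.0531), so that values of similar size lay on both sides of the threshold. The Nemo/TRAIL dKO call, a fold of 1.28 (1.11 to 1.47), held in only 1 of 11 fits with an array left out, and adjusted p ranged from 0.0453 to 0.289. In Nemo KO the threshold was passed without WT replicate 3 (0.0494) and without either Nemo/TRAIL dKO array (0.0425 each).

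Cdh5 measured 9.94, 9.76 and 9.73 in Nemo/TNFR1 dKO, 9.69 and 9.81 in Nemo/TRAIL dKO, 9.66, 9.84 and 9.91 in Nemo KO, and 9.65, 9.62 and 9.61 in WT livers. Again all 8 Nemo-deficient livers lay above the WT livers, the nearest by a narrow margin. The differences were 0.18 ± 0.09, 0.12 ± 0.10 and 0.18 ± 0.09 (adjusted p = 0.235, 0.518 and 0.229). Groups without overlap were common in these small groups. In Nemo/TNFR1 dKO against WT they were found for 5 of 10 markers, where 25.5% of all probe sets had no overlap. In Nemo/TRAIL dKO they were found for 6, where the share was 35.9%, and in Nemo KO for 4, where it was 30.3%. How many of all probe sets had all 8 Nemo-deficient livers on the same side of the WT livers was not counted.

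**Figure D2:**
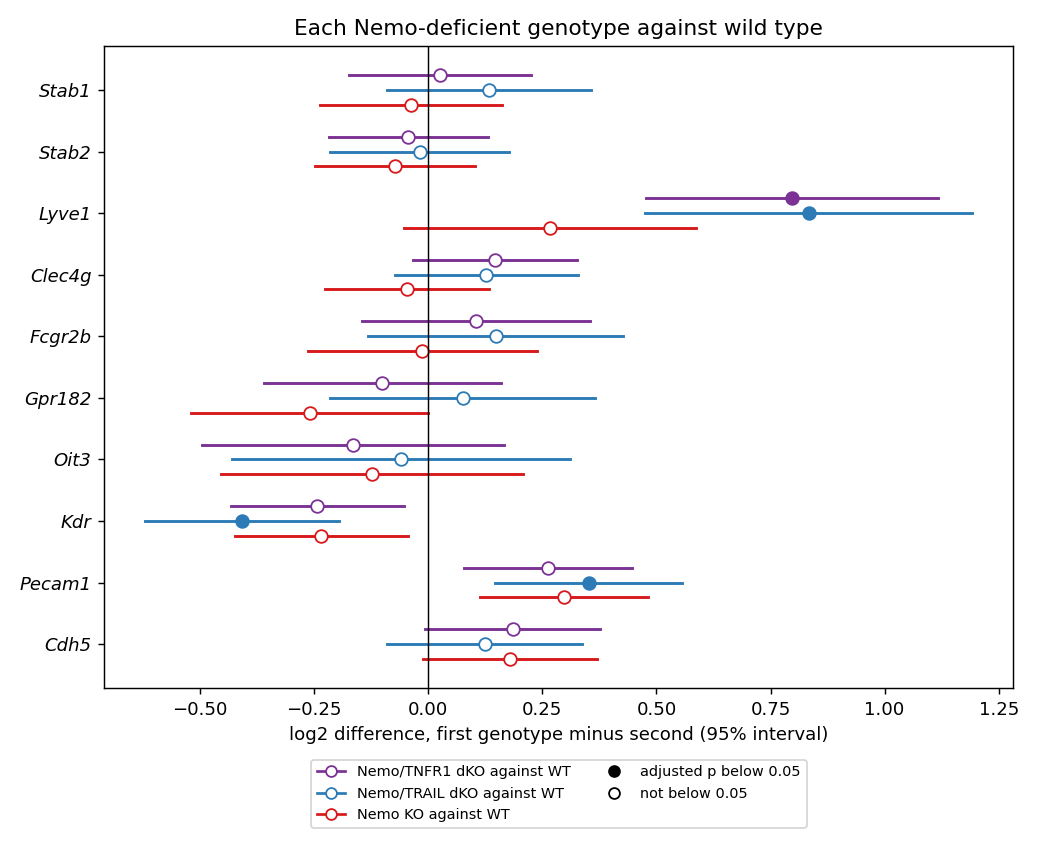
Log2 difference from WT of each marker with its 95% interval, for Nemo/TNFR1 dKO, Nemo/TRAIL dKO and Nemo KO from top to bottom within a gene, with filled points at an adjusted p below 0.05. The filled points are Lyve1 in both double knockouts and Kdr and Pecam1 in Nemo/TRAIL dKO, and every other interval lies within a fold of 0.698 to 1.503.

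The second question was whether constitutive loss of TNFR1 or TRAIL moved the markers in livers that already lacked hepatocyte Nemo. No marker was called in Nemo/TNFR1 dKO against Nemo KO, where 0.0337% of probe sets were called, nor in Nemo/TRAIL dKO against Nemo KO, where 0.00562% were. None was called in Nemo/TNFR1 dKO against Nemo/TRAIL dKO, where 0.0478% were. At an unadjusted p below 0.05 there were 2 markers, beside 6.86% of all probe sets, 2 beside 4.04%, and 0 beside 5.03% in these 3 comparisons. Few probe sets passed in these comparisons, and a difference that misses the threshold is not shown to be absent. The first and second comparison share the Nemo KO arrays.

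Lyve1 was higher than in Nemo KO livers by 0.53 ± 0.14 in Nemo/TNFR1 dKO (95% interval 0.21 to 0.85, unadjusted p = 0.00442, adjusted p = 0.496) and by 0.57 ± 0.16 in Nemo/TRAIL dKO livers (0.21 to 0.92, unadjusted p = 0.00571, adjusted p = 1). Without Nemo KO replicate 1 these were 0.71 and 0.74, again not called. Between Nemo/TNFR1 dKO and Nemo/TRAIL dKO the difference was -0.04 ± 0.16, with an interval from -0.40 to 0.32. The other marker past an unadjusted 0.05 was Clec4g in Nemo/TNFR1 dKO, at 0.19 ± 0.08 (unadjusted p = 0.0381, adjusted p = 0.716). In Nemo/TRAIL dKO it was Gpr182, at 0.33 ± 0.13 (unadjusted p = 0.0282, adjusted p = 1).

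The remaining markers differed by less. For Stab2, Oit3, Pecam1 and Cdh5 the differences of either double knockout from Nemo KO lay between -0.06 and 0.06. Kdr differed by -0.17 ± 0.09 in Nemo/TRAIL dKO against Nemo KO and by 0.16 ± 0.09 in Nemo/TNFR1 dKO against Nemo/TRAIL dKO (adjusted p = 1 and 0.9999), with the lowest Kdr value of the study, 8.74, in Nemo/TRAIL dKO replicate 1. The 95% intervals of the 10 markers in all 3 comparisons together ran from a fold of 0.719 to 1.90.

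**Figure D3:**
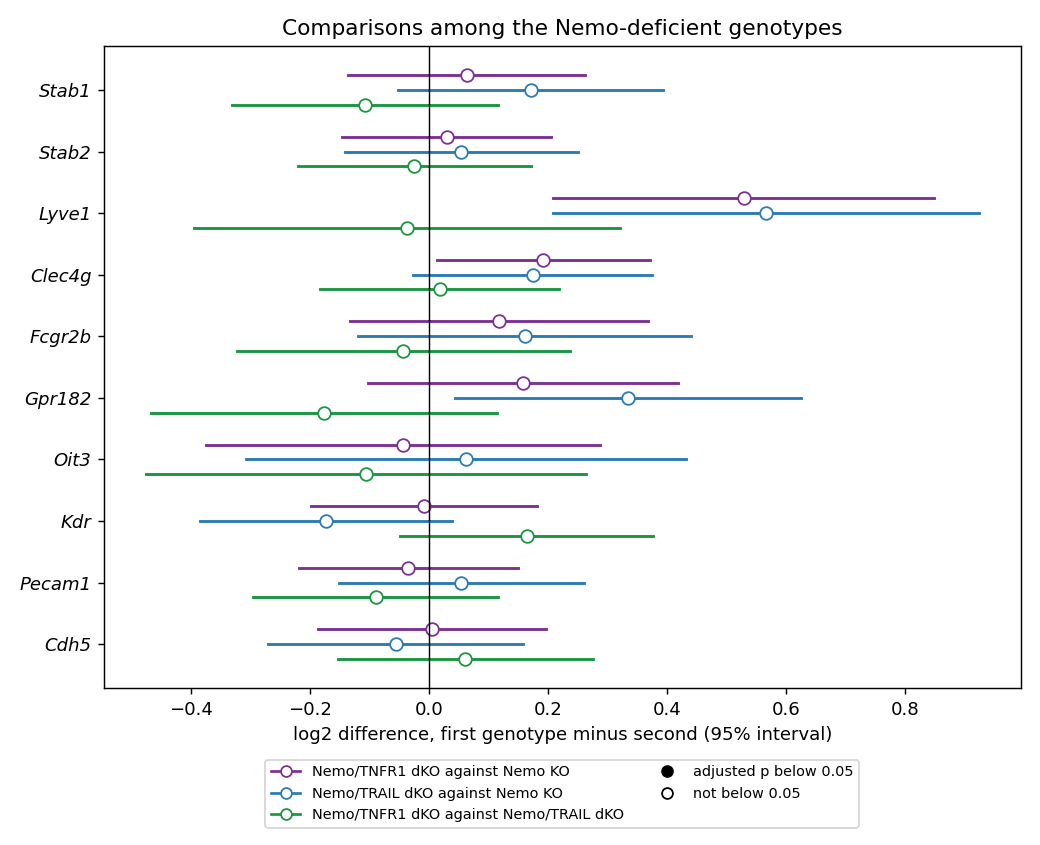
Log2 difference of each marker with its 95% interval for Nemo/TNFR1 dKO against Nemo KO, Nemo/TRAIL dKO against Nemo KO, and Nemo/TNFR1 dKO against Nemo/TRAIL dKO. All points are open (adjusted p not below 0.05), and the Lyve1 intervals of both double knockouts against Nemo KO run from 0.21 to 0.85 and from 0.21 to 0.92.

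The markers did not vary as a single block across livers. Over the 11 arrays 10 of 45 marker pairs had a Pearson's r above 0.5 and 13 had one below 0. With each array taken as its deviation from the genotype mean, 14 pairs lay above 0.5 and 14 below 0. These values describe 11 arrays that share genotype, and RMA normalization, and carry no test. Stab1, Stab2 and Oit3 ran together, with r = 0.78 for Stab1 and Stab2, 0.76 for Stab1 and Oit3 and 0.87 for Stab2 and Oit3. Within genotypes these were 0.89, 0.96 and 0.88. With Stab1, Stab2 and Oit3, Lyve1 had an r of 0.18, -0.19 and -0.43 over the arrays and of -0.52, -0.31 and -0.56 within genotypes. Over the arrays its r was 0.62 with Clec4g, 0.60 with Pecam1, 0.21 with Cdh5 and -0.70 with Kdr, and within genotypes these were 0.04, -0.03, -0.77 and -0.125. Kdr and Pecam1 had an r of -0.73 over the arrays and 0.00 within genotypes.

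Between the 2 Nemo/TRAIL dKO livers, 9 of 10 markers were higher in replicate 2, which lay above the genotype mean by a median of 0.11. The mean of the 10 markers, each centred on its own mean, lay between -0.03 and 0.10 in Nemo/TNFR1 dKO livers. It was -0.01 and 0.17 in Nemo/TRAIL dKO, between -0.08 and -0.03 in Nemo KO, and between -0.06 and -0.04 in WT livers. The genes most like this mean over the 11 arrays were Kdelr1 (r = 0.928), Rab3ip (0.925), Actr6 (0.917), Mgst3 (0.917) and Psmd9 (0.915).

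For single markers the gene most alike over the 11 arrays was Gatd1 for Stab1 (r = 0.905), Calcrl for Stab2 (0.929), H4c6 for Lyve1 (0.901), E030030I06Rik for Clec4g (0.918) and Nit1 for Fcgr2b (0.855). It was Gm9776 for Gpr182 (0.907), Gorasp1 for Oit3 (0.928), Zfp653 for Kdr (0.971), Ggt5 for Pecam1 (0.975) and Syn1 for Cdh5 (0.948). Of these, Calcrl, the calcitonin receptor-like receptor, is an endothelial gene. Each is the closest of all 19938 genes over only 11 arrays.

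**Figure D4:**
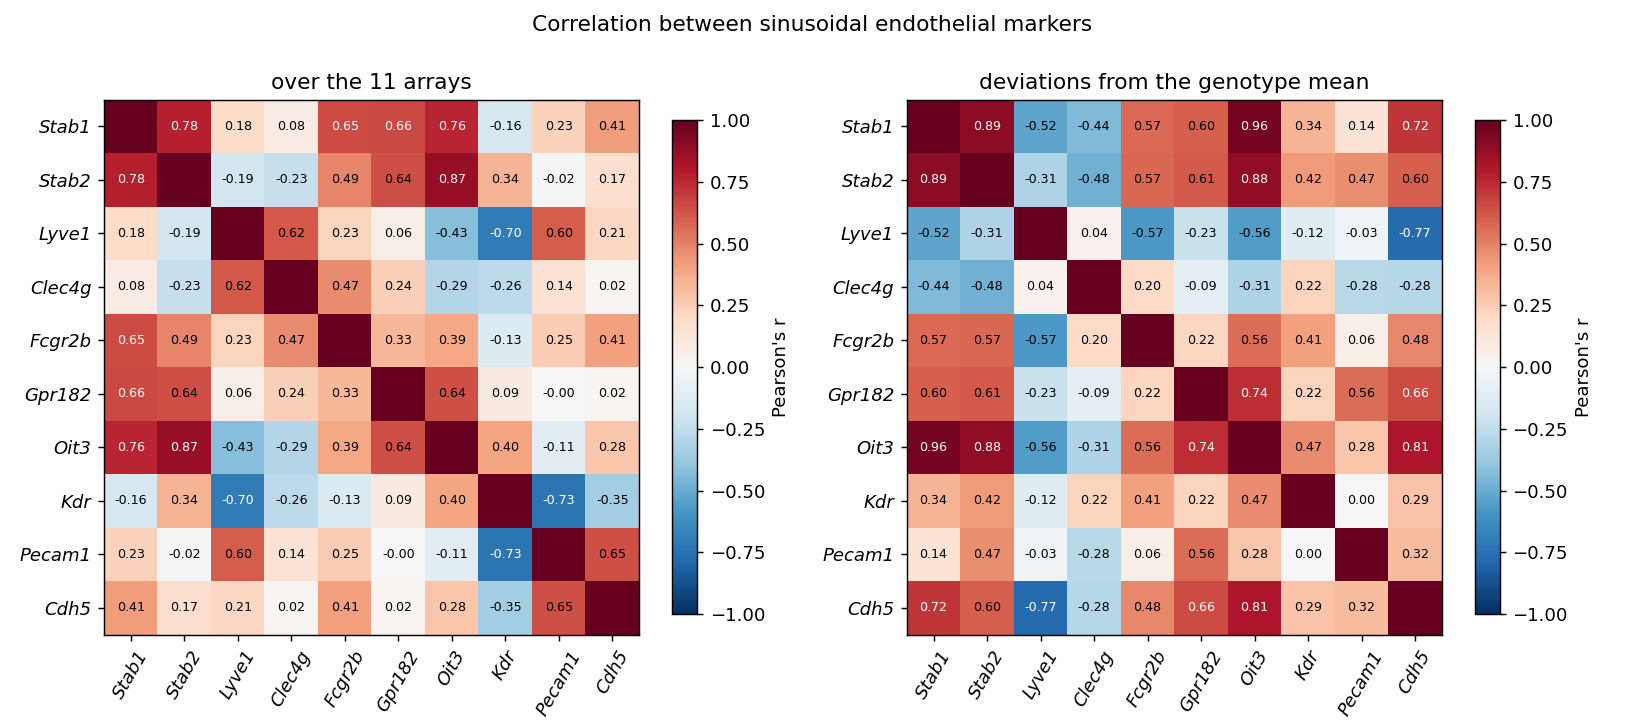
Pearson's r between the 10 markers over the 11 arrays (left) and over deviations from the genotype mean (right), from blue (negative) to red (positive). Stab1, Stab2 and Oit3 form a positive block in both panels (0.76 to 0.96), and Lyve1 is negative with Stab1 (-0.52), Oit3 (-0.56) and Cdh5 (-0.77) within genotypes.

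Beyond the 10 markers, 14 other genes of sinusoidal endothelium were measured. Of these 1 was called, lower, in each Nemo-deficient genotype against WT, the C-type lectin Cd209b. Of all probe sets 9.18% were called in Nemo/TNFR1 dKO, 7.55% in Nemo/TRAIL dKO and 9.29% in Nemo KO livers. The list medians were -0.10, -0.04 and -0.06 in the same order. Cd209b averaged 4.99 ± 0.03, 5.02 ± 0.01 and 4.90 ± 0.10 in these genotypes, against 5.29 ± 0.04 in WT livers. Its signal was weak, close to the 25th percentile of the arrays (4.73 to 4.82). It fell by 0.30 ± 0.06 (SE, adjusted p = 0.0174), 0.28 ± 0.07 (0.0463) and 0.40 ± 0.06 (0.00492), and only the Nemo KO call held with each array left out (adjusted p up to 0.0641 in Nemo/TNFR1 dKO and 0.211 in Nemo/TRAIL dKO, where it was 0.0789 without WT replicate 3). Without WT replicate 3 the counts of this list were 0 higher and 2 lower in Nemo/TNFR1 dKO (Cd209b and Clec1b), 0 and 0 in Nemo/TRAIL dKO, and 0 and 1 in Nemo KO livers. Gata4, the regulator named above, was at 8.91 ± 0.22, 8.70 ± 0.10 and 8.93 ± 0.12, against 9.02 ± 0.05 in WT livers, and was not called.

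Clec1b, the podoplanin receptor CLEC-2 of platelets, which Kupffer cells and sinusoidal endothelium also express, had the largest differences of that list among the Nemo-deficient genotypes. It averaged 7.08 ± 0.11 in the 3 Nemo/TNFR1 dKO, 8.65 ± 0.31 in the 2 Nemo/TRAIL dKO and 8.29 ± 0.24 in the 3 Nemo KO livers (SD), against 7.86 ± 0.55 in the 3 WT livers. The difference of Nemo/TNFR1 dKO was -1.20 ± 0.25 from Nemo KO (adjusted p = 0.344) and -1.56 ± 0.28 from Nemo/TRAIL dKO (0.327). From WT it was -0.78 ± 0.25 (0.0877). None of these passed. With WT replicate 3 left out, the difference of Nemo/TNFR1 dKO from WT was -1.09 and passed (adjusted p = 0.00744). That from Nemo/TRAIL dKO passed too (0.0228), but this comparison holds no WT array. Its difference stayed at -1.56, and only the shared estimate of the spread changed. Each of these 2 calls was made in only 1 of 11 fits with an array left out. Clec1b lies on chromosome 6, as does Tnfrsf1a, and whether this location has a part in the Clec1b values was not tested. In Nemo/TNFR1 dKO livers location, TNFR1 loss and the array-name code cannot be told apart.

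Of 24 pan-endothelial genes, 3 were called higher and 1 lower in Nemo/TNFR1 dKO against WT, 1 and 1 in Nemo/TRAIL dKO, and 4 and 0 in Nemo KO. Their medians were -0.0005, -0.0031 and 0.0005. The gene called lower in both double knockouts was Nrp1, which was counted in the VEGF and angiopoietin list too. Flt1, Tek and Tie1 also stand in both lists. Without WT replicate 3 the counts called higher and lower were 2 and 1, 1 and 0, and 2 and 1. With all arrays, the share of all probe sets called was 9.18%, 7.55% and 9.29% in the same order. Ecscr, an endothelial surface protein of cell migration and survival, rose in all 3, by 0.41 ± 0.09, 0.47 ± 0.10 and 0.43 ± 0.09 (adjusted p = 0.0162, 0.0162 and 0.0127). With an array left out, the Ecscr calls were lost only in Nemo/TRAIL dKO without its replicate 1 (difference 0.41) and in Nemo KO without its replicate 2 (adjusted p = 0.0537). In each double knockout the Ecscr call held in 9 of 10 other processing settings. Eng, the TGF-beta co-receptor endoglin, averaged 10.89 ± 0.02 in Nemo/TNFR1 dKO and 10.83 ± 0.12 in Nemo KO livers, against 10.51 ± 0.11 in WT livers, and was called in both (adjusted p = 0.0168 and 0.0327). In Nemo/TRAIL dKO Eng was 10.77 ± 0.02 (0.117). With an array left out, the Nemo/TNFR1 dKO call held in 10 of 11 fits and the Nemo KO call in 7 of 11. The Nemo KO call was lost without WT replicate 3 (0.0845), among other arrays. The ETS factor Fli1, which blood cells also express, rose by 0.45 ± 0.12 in Nemo/TNFR1 dKO (0.0437, called in 1 of 11 fits with an array left out, up to 0.147, and at 0.118 without WT replicate 3) and by 0.58 ± 0.12 in Nemo KO livers (0.0143, called in 10 of 11).

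Among genes of capillarised sinusoids and larger vessels, 18 of 20 were measured. Of these 6 were called higher in Nemo/TNFR1 dKO, 4 in Nemo/TRAIL dKO and 7 in Nemo KO against WT, and none lower. Called or not, 10 genes lay higher and 8 lower in Nemo/TNFR1 dKO, 13 and 5 in Nemo/TRAIL dKO, and 14 and 4 in Nemo KO livers. The list medians were 0.17, 0.18 and 0.23, beside -0.02, -0.04 and -0.05 over all genes. With WT replicate 3 left out, the counts called higher were 6, 5 and 7. Over all probe sets and all arrays, 9.18%, 7.55% and 9.29% were called. Ackr1, of this list, differed from WT by -0.48 ± 0.18, -0.60 ± 0.20 and -0.16 ± 0.18 in the same order, without a call. Cd9, a tetraspanin, averaged 8.69 ± 0.19, 8.74 ± 0.37 and 8.70 ± 0.08, against 7.36 ± 0.17 in WT livers (log2 differences 1.33 ± 0.15, 1.38 ± 0.17 and 1.34 ± 0.15, adjusted p = 0.000995, 0.00180 and 0.000912). The basement membrane collagen Col4a2 rose by 0.999 ± 0.14, 0.88 ± 0.16 and 0.92 ± 0.14 (adjusted p = 0.00265, 0.00940 and 0.00371), and its partner Col4a1 by 0.83 ± 0.11, 0.74 ± 0.13 and 0.68 ± 0.11. In Nemo/TRAIL dKO both collagen calls were lost without replicate 1 of that genotype (0.0973 and 0.0856).

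Plvap, which forms the diaphragms of fenestrae and caveolae in other capillaries, averaged 9.58 ± 0.16 in Nemo/TNFR1 dKO, 9.38 ± 0.13 in Nemo/TRAIL dKO and 9.32 ± 0.23 in Nemo KO livers, against 8.73 ± 0.07 in WT livers. It rose by 0.85 ± 0.12 (adjusted p = 0.00309, called with each array left out), 0.64 ± 0.14 (0.0213, called in 8 of 11, up to 0.139) and 0.59 ± 0.12 (0.0164, called in 8 of 11, up to 0.0630). Cd34, an antigen of capillary endothelium and of progenitor cells, averaged 8.39 ± 0.41, 8.35 ± 0.47 and 8.68 ± 0.20, against 7.24 ± 0.77 in WT livers. It was called in Nemo KO only (1.44 ± 0.36, adjusted p = 0.0364, held in 5 of 11), and the differences of 1.15 ± 0.36 in Nemo/TNFR1 dKO (0.0833) and 1.11 ± 0.40 in Nemo/TRAIL dKO (0.144) passed without WT replicate 3 (0.0188 and 0.0330).

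Signals that endothelium sends to hepatocytes, and genes zonated along the sinusoid, made up a list of 14. Against WT 4 were called higher and 1 lower in Nemo/TNFR1 dKO, 4 and 1 in Nemo/TRAIL dKO and 5 and 1 in Nemo KO livers. Without WT replicate 3 the counts were 4 and 1, 3 and 0, and 4 and 1. The shares of all probe sets called, with all arrays, were 9.18%, 7.55% and 9.29%. Hgf, the hepatocyte growth factor, rose by 1.29 ± 0.12, 1.12 ± 0.13 and 1.36 ± 0.12 (adjusted p = 0.000482, 0.00170 and 0.000426), and the anticoagulant receptor Thbd by 1.33 ± 0.16, 1.27 ± 0.18 and 1.14 ± 0.16 (0.00145, 0.00401 and 0.00274). Both held in every fit with an array left out. Dkk3, a secreted protein of the Dickkopf family, rose by 0.78 ± 0.15, 0.71 ± 0.17 and 0.82 ± 0.15, and in Nemo/TRAIL dKO the call held in 3 of 11 such fits (adjusted p up to 0.173).

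Rspo3, the enhancer of Wnt signalling made by central vein endothelium, rose by 0.59 ± 0.10 in Nemo/TNFR1 dKO (adjusted p = 0.00724), 0.48 ± 0.12 in Nemo/TRAIL dKO (0.0355) and 0.45 ± 0.10 in Nemo KO livers (0.0239). The Nemo/TNFR1 dKO call held with each array left out. The Nemo/TRAIL dKO call held in only 4 of 11 such fits and the Nemo KO call in 6 of 11. Both were lost without WT replicate 3 (0.0849 in Nemo/TRAIL dKO and 0.0696 in Nemo KO), among other arrays. The Notch ligand Dll4 fell by 0.54 ± 0.08 (0.00259), 0.34 ± 0.08 (0.0412) and 0.39 ± 0.08 (0.0116), and its Nemo/TRAIL dKO call held in 2 of 11 fits with an array left out (up to 0.174, and 0.0599 without WT replicate 3). The Wnt ligands themselves were not called. Wnt2 averaged 7.55 ± 0.25, 7.33 ± 0.08 and 7.18 ± 0.02, against 7.09 ± 0.21 in WT livers (adjusted p = 0.0653, 0.420 and 0.709), and Wnt9b differed from WT by 0.20 ± 0.15, 0.16 ± 0.17 and 0.07 ± 0.15.

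**Figure D5:**
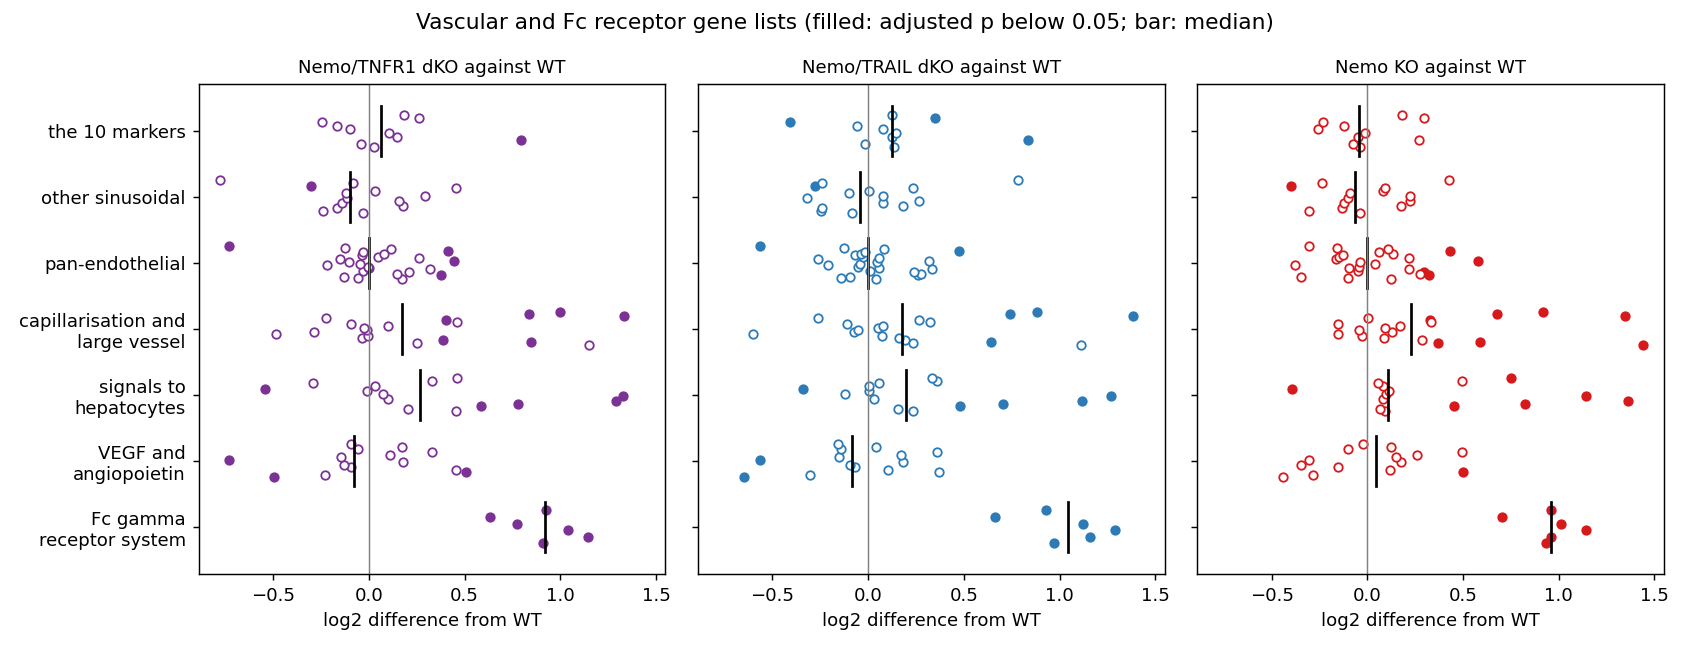
Log2 difference from WT of each measured gene of 7 lists, in Nemo/TNFR1 dKO, Nemo/TRAIL dKO and Nemo KO from left to right, with filled points at an adjusted p below 0.05 and a bar at the list median. All 6 genes of the Fc gamma receptor system are filled and right of 0 in each panel (medians 0.92, 1.05 and 0.96), whereas the medians of the 10 markers (0.07, 0.13 and -0.04) and of the other sinusoidal genes (-0.10, -0.04 and -0.06) lie near 0.

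Markers of other liver cells moved in the same livers, and some of the genes above are shared with those cells. The counts against WT below stand beside 9.18% of all probe sets in Nemo/TNFR1 dKO, 7.55% in Nemo/TRAIL dKO and 9.29% in Nemo KO livers. Monocyte and inflammatory macrophage markers were called higher for 8 of 9 measured genes in each Nemo-deficient genotype against WT, with list means of 8.00 to 8.49 in Nemo/TNFR1 dKO, 8.37 to 8.46 in the Nemo/TRAIL dKO and 8.13 to 8.35 in the Nemo KO, against 6.55 to 6.64 in WT livers. Kupffer cell markers were called for 6 of 10 higher in Nemo/TNFR1 dKO, 5 higher and 2 lower in Nemo/TRAIL dKO, and 6 higher and 1 lower in Nemo KO livers. With WT replicate 3 left out, these counts were 4 and 0, 4 and 2, and 5 and 1. Their list means were 8.87 to 9.05, 8.78 to 8.83 and 8.70 to 9.09, against 8.38 to 8.50 in WT livers. Some tissue macrophages also carry Lyve1 and Kupffer cells carry Fcgr2b, and the part of macrophages in the Lyve1 difference was not tested. Trem2, a receptor of inflammatory macrophages, was the single gene of these lists that was called between Nemo-deficient genotypes, higher in Nemo/TNFR1 dKO than in Nemo KO by 0.74 ± 0.08 (adjusted p = 0.0141).

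Stellate cell markers, of which Hgf and type IV collagen are further products, were called higher for 6 of 10 genes in Nemo/TNFR1 dKO, 4 in Nemo/TRAIL dKO and 6 in Nemo KO livers, with list means of 8.75 to 8.83, 8.65 to 8.66 and 8.75 to 8.99, against 8.17 to 8.26 in WT livers. Without WT replicate 3 the counts were 6, 5 and 6, with 1 lower in Nemo/TRAIL dKO (Hhip, -1.05, adjusted p = 0.0364). Called or not, 9 genes lay higher and 1 lower in Nemo/TNFR1 dKO, 7 and 3 in Nemo/TRAIL dKO, and 9 and 1 in Nemo KO livers. Pdgfrb had the largest rise of the list, by 1.38 ± 0.20, 1.38 ± 0.22 and 1.61 ± 0.20. Hhip differed by -0.61 ± 0.21, -0.88 ± 0.24 and -0.60 ± 0.21 with all arrays, without a call. Proliferation markers were called higher for 9, 8 and 9 of 9 measured genes, with list means of 7.65 to 8.70, 7.99 to 8.26 and 7.99 to 8.24, against 5.59 to 6.16 in WT livers, and for 8 in each without WT replicate 3. The part of stellate and dividing cells in the vascular lists was not tested.

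Lymphatic endothelium shares Lyve1 with the sinusoid. Of its 5 measured markers of 6, only Reln was called, higher in each genotype (0.90 ± 0.11, 0.66 ± 0.12 and 0.84 ± 0.11), and Reln is also a stellate cell gene and was counted there too. Prox1, the lymphatic master regulator that hepatocytes also express, averaged 9.99 ± 0.11 in Nemo/TNFR1 dKO, 9.74 ± 0.07 in Nemo/TRAIL dKO and 9.72 ± 0.17 in Nemo KO livers, against 10.14 ± 0.20 in WT livers. Podoplanin, Pdpn, averaged 6.05 ± 0.02, 5.92 ± 0.05 and 5.91 ± 0.11, against 6.12 ± 0.21 in WT livers, and neither was called. Flt4, of this list, was counted among the other sinusoidal genes too. The list mean was 8.15 to 8.18 in Nemo/TNFR1 dKO and 8.00 to 8.05 in Nemo/TRAIL dKO, against 7.94 to 8.08 in Nemo KO and 7.83 to 8.18 in WT livers. The list medians of the differences from WT were -0.05 in Nemo/TNFR1 dKO, -0.15 in Nemo/TRAIL dKO and -0.22 in Nemo KO. Without WT replicate 3 they were 0.17, 0.15 and -0.03. The part of lymphatic endothelium in the Lyve1 difference was not tested. Of B cell markers, which bear on Fcgr2b, 1 of 5 measured was called in each genotype (Cd22, by 0.39 to 0.41), and of 6 cholangiocyte markers 0, 2 and 1 were called higher (0, 1 and 0 without WT replicate 3).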

How the data were processed

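RNA of 11 liver samples was run on Affymetrix mouse whole-transcript arrays, from samples with an RNA integrity number above 8.0 per the labels' protocols. The deposited table holds log2 values of 35556 probe sets that the authors made with RMA, per the submitters' processing notes. No source used here gives the RMA version, and the values were analysed as deposited. A single symbol was annotated for 21789 probe sets (19938 genes), several for 1621 and none for 12146.

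A linear model with 1 mean per genotype was fitted to all arrays and probe sets with limma 3.58.1 in R 4.3.3 (eBayes at its defaults, with 7 residual and 2.51 prior degrees of freedom). The two-sided p-values were adjusted by Benjamini-Hochberg within each of 6 comparisons and called below 0.05. The model was tested on simulated data. Precision is limited by how few arrays there are.

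The markers and gene lists were chosen with earlier results of these data known. All 10 markers were named, and the genes most correlated with them. Of each list the rule picked up to 3 called genes with the largest difference per comparison, or else the gene with the largest difference. Not every gene picked by this rule is named in the text. Among those left out are Cd163, C1qb, Adgre1, Gpnmb, Mmp12, Clec7a, Cygb, Lrat, Tspan8, Ccna2, Lama4, Ltbp1, Bmp6, Nrp2 and Vegfd. Gata4, Prox1, Pdpn, Wnt2, Wnt9b, Flt1, Flt4, Tek, Tie1, Fcgr1 and Syk were added after their values were seen. So were Rspo3, Dll4, Eng, Cd34, Plvap, Vegfa, Col4a1, Clec1b, Nrp1, Ackr1 and Hhip in comparisons where the rule does not name them. Among the list genes not analysed here were Selp, Ly6a, Fcgrt, Ccl21a, Ly6c2, Ass1, Pnlip and Ccnb1.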

Additional observations from a re-analysis of the deposited data

How the results depend on the processing

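Each count of called markers was repeated with array weights, a replicate block, a trend of variance on signal, robust eBayes, and values centred by median or quantile-normalized again. It was also repeated with fits of just the 2 genotypes at hand, probe sets with a symbol of their own, and a floor on mean signal (25th percentile or median). Further repeats used an adjusted p below 0.01 or left each array out in turn. For Clec4g the mean difference of its 2 probe sets was also taken, as a value without a p-value or a call. The array-name code as a random block could not be fitted, since nothing of it is left beside genotype. In Nemo/TNFR1 dKO against WT the 1 marker called became 2 (Lyve1 and Pecam1) with the filter at the median, and 1 to 2 with an array left out. In Nemo/TRAIL dKO against WT the 3 markers became 2 (without Pecam1) with robust eBayes and with values centred or quantile-normalized, 1 (Lyve1) with only the 2 groups compared, 0 at an adjusted p below 0.01, and 0 to 3 with an array left out. In Nemo KO against WT the count of 0 became 1 (Pecam1) with the variance trend, both filters, single-symbol probe sets and array weights, and 0 to 2 with an array left out. Replicates share only a number across genotypes (correlations of their deviations from -0.117 to 0.044), and with the replicate block the counts in these 3 comparisons were again 1, 3 and 0. Between the Nemo-deficient genotypes no marker was called in any of these repeated counts. Of 3367 further values of markers and list genes under an alternative, 3107 kept their direction and side of the threshold, 180 called values were no longer past it, 33 came to pass it, none of the called values reversed, and 47 uncalled ones changed sign or moved beyond 1 SD (none above 0.126 in size). The 3367 values include uncalled ones in every comparison. They also include fits without an array of a genotype outside the comparison, where the difference itself could not change. The count of 3107 therefore does not measure how well the calls held. Groups of 2 or 3 livers limit the precision of every difference.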
